A study of Mus musculus with 8 samples.

Results

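CaM kinases are protein kinases that calcium-loaded calmodulin turns on, and calmodulin is the small calcium sensor that almost every eukaryotic cell carries. The members described here are 9 genes of this pathway out of the 24982 genes with a deposited value. They were taken by name and comprise the calmodulin genes Calm2 and Calm3, the 4 genes Camk2a, Camk2b, Camk2d and Camk2g for the subunits of calcium/calmodulin-dependent kinase II (CaMKII), the upstream kinase genes Camkk1 and Camkk2, and Camk4 for CaM kinase IV. The members were chosen by name with their rlog differences between aspartame and plain water in these same libraries already known, so those values describe the members and lend no independent support to any direction.

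RNA sequencing was performed on the microdissected amygdala of adult male C57BL/6 mice, with 1 library per animal. In the aspartame group, 4 mice drank water with 0.03% aspartame, a dipeptide sweetener, and in the plain water group 4 mice drank plain water. The sample labels give an exposure of 18 wk, the methods of the study give a shorter one, and the mice were 187 to 189 d old. No female mice, other doses or other brain regions are in the table. The table holds what its name calls rlog values, that is, regularized log2 counts scaled for library size in which weakly counted genes are drawn toward their own mean. The sequencing depth is unknown, because no counts are in the table.

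In neurons, calcium that enters through glutamate receptors and voltage-gated channels binds calmodulin, which then activates CaMKII at the postsynaptic density, and CaMKII there strengthens excitatory synapses and holds a trace of its own activation by phosphorylating itself. CaMKK phosphorylates and activates CaM kinase I and CaM kinase IV, and CaM kinase IV carries the calcium signal to transcription factors such as CREB in the nucleus. The amygdala, a region that controls fear and anxiety, uses this pathway in the plasticity of its glutamatergic synapses.

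The study left 1 aspartame library out after PCA without naming it. Aspartame 2 stood at one end of the first principal component, which held 55.8% of the variance, with a score of 27.6. Plain water scored -4.32 to 10.3. The scores were -17.9, -5.55 and -24.0 in aspartame 1, 3 and 4, so aspartame 4 lay far out at the other end. Mean correlation with the other libraries was 0.985 for aspartame 2 and 0.986 for aspartame 4, against 0.989 to 0.993 for the rest. These values do not settle which library the study left out. Pairs of aspartame libraries correlated at 0.971 to 0.993 across genes and pairs of plain water libraries at 0.993 to 0.997. Each comparison is given first without aspartame 2, for aspartame 1, 3 and 4 against the 4 plain water libraries, and then for all 8 libraries. A difference is always the mean rlog in aspartame minus that in plain water. A gene is called where its p from limma, adjusted over all genes tested, is under 0.05. The tissue showed neuronal markers throughout, since the excitatory marker Slc17a7 had a mean rlog of 11.11 and no GABAergic marker had one under 6.27 (Slc32a1), and all 6 markers of amygdala nuclei passed the filter on low values. Plain water 1 carried more choroid plexus RNA than the rest, with a summed level of its markers of 7.10 to 7.60 in aspartame 1, 3 and 4 against 10.35 in plain water 1 and 6.89 to 7.05 in the other plain water libraries. Aspartame 1 was the highest library for the summed level of 5 markers of striatal projection neurons. That sum was 11.14, 10.70 and 10.23 in aspartame 1, 3 and 4 and 10.28 in aspartame 2, against 10.01 to 10.51 in plain water.

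Without aspartame 2, Camk2b and Calm3 were higher in the aspartame group, by 1.43-fold and 1.34-fold on the rlog scale. Camk2a had a difference of similar size that was not called, Camk2d was the only member with a negative difference, and Camk2g, Camkk1, Camkk2, Camk4 and Calm2 had smaller differences that were not called. In counts, 2 of the 9 members were called higher and 0 were called lower (limma), where 6.1% and 2.71% of the 12870 genes tested were called in those directions. Unadjusted p was under 0.05 for 4 members (Camk2b, Calm3 and Camk2a upward, Camk2d downward), where 27.1% of all genes had such a p. In bulk tissue such as this, fewer cells of a type and less RNA per cell cannot be told apart. The median difference of the members was 0.13, against -0.0042 over all genes tested. All 9 members passed the filter on low values (a mean rlog of at least 3). With all 8 libraries, 0 of the 9 members were called by limma and 0 had an unadjusted p under 0.05, where 0% of 12861 genes were called and 4.3% had such a p.

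**Figure D1:**
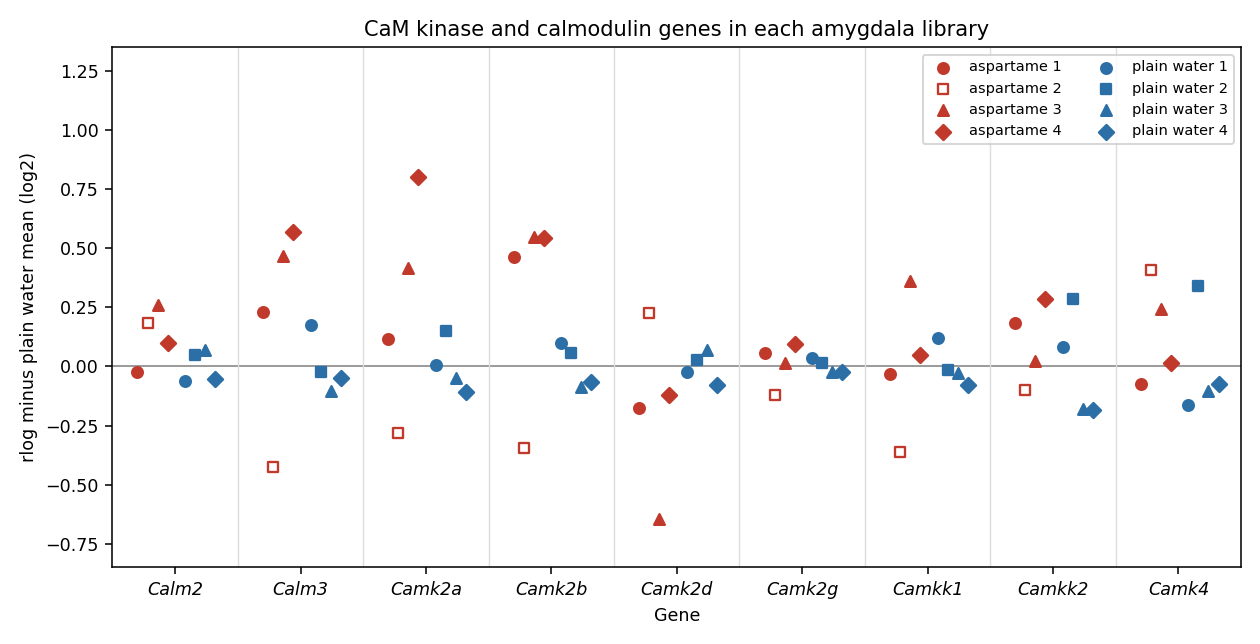
Level of each CaM kinase and calmodulin gene in each library, as rlog minus the mean rlog of the 4 plain water libraries (log2), with aspartame libraries in red to the left of plain water libraries in blue and aspartame 2 as open squares. The 3 other aspartame libraries sit above every plain water library for Camk2b and Calm3 and below them for Camk2d, while aspartame 2 lies on the other side of the plain water mean for each of these genes.

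Calm2 and Calm3 make the same calmodulin protein from separate genes. Calm2 lies on the minus strand of chromosome 17 (chr17:87433412-87446935, GRCm38) and Calm3 on the minus strand of chromosome 7 (chr7:16915379-16924114). The start of their coding sequences is shown because it tells how far reads of the 2 genes can be told apart. The first 120 of 450 coding bases follow, from the longest protein-coding transcript of each gene in GENCODE M21, with capitals at positions where the 2 genes differ.
Calm2: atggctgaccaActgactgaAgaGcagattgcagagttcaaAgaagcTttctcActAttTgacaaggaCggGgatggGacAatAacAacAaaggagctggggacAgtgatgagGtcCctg
Calm3: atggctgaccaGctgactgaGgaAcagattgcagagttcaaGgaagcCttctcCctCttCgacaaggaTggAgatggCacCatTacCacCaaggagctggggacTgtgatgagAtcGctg
Calm2 and Calm3 were identical at 372 of 450 coding bases (82.7%), and of their 78 differences 74 fell at the third base of a codon and 0 at the second base. The longest run they share is 17 bases, while the reads were 150 bases long. Some annotated pseudogenes lie closer. Gm7308 matches the Calm2 transcript at 96.9% over 447 bases and Gm15720 at 98.2% over 276 bases, and Gm5881 matches Calm3 at 96.2% over 367 bases. These pseudogenes have no value in the table, so it cannot be seen how reads that fit both were shared, and the levels of Calm2 and Calm3 are uncertain to that extent.

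Calm2 stood at 12.15, 12.43 and 12.27 in aspartame 1, 3 and 4 and at 12.35 in aspartame 2, against 12.11, 12.22, 12.24 and 12.12 in plain water 1 to 4. The groups overlapped, as aspartame 1 lay below plain water 2 and 3. The difference without aspartame 2 was 0.11 (SE 0.088, adjusted p = 0.445 by limma) and that with all 8 libraries 0.13 (SE 0.087, adjusted p = 0.903), and its sign turned to -0.063 (adjusted p = 0.515) after quantile normalization. Calm2 has a transcript of low GC content (42.7%, against a median of 49.9% over all genes tested), and once a smooth trend with GC content and length was removed from each library its difference was 0.35 (adjusted p = 0.0408).

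Calm3 stood at 11.63, 11.86 and 11.96 in aspartame 1, 3 and 4 and at 10.97 in aspartame 2, against 11.57, 11.37, 11.29 and 11.35 in plain water 1 to 4. Aspartame 1, 3 and 4 all lay above every plain water library, though aspartame 1 was above plain water 1 by little, and aspartame 2 was the lowest of the 8 libraries. Groups that do not overlap in this direction were seen for 11% of all genes tested. Calm3 averaged 11.82 ± 0.17 in aspartame 1, 3 and 4 (SD, n = 3) and 11.40 ± 0.12 in plain water (SD, n = 4), and it was called with 0.42 (SE 0.10, adjusted p = 0.0287 by limma). With all 8 libraries the difference was 0.21 (SE 0.18, adjusted p = 0.907), and it was also not called without plain water 2 (0.41, adjusted p = 0.0707), plain water 3 (0.39, 0.100), plain water 4 (0.41, 0.0958) or aspartame 4 (0.35, 0.0996). Calm3 has a GC content of 58.3%, and with the GC and length trend removed its difference was 0.23 (adjusted p = 0.188).

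Levels of different genes were compared as rlog minus log2 of the transcript length in kb, so that a long transcript does not count for more. On this scale Calm2 was the highest member, with 12.01 ± 0.14 in aspartame 1, 3 and 4 (SD, n = 3) and 11.90 ± 0.067 in plain water (SD, n = 4). Turned into shares, Calm3 made up 26.8%, 26.2% and 29.8% of Calm2 and Calm3 transcripts together in aspartame 1, 3 and 4 and 16.8% in aspartame 2, against 26.6%, 22.6%, 21.4% and 23.6% in plain water 1 to 4. The groups overlapped, as the share in plain water 1 lay between those in aspartame 3 and aspartame 1, and aspartame 2 had the lowest share. The level of Calm3 relative to Calm2 was -0.52, -0.57 and -0.31 (log2, not corrected for length) in aspartame 1, 3 and 4 and -1.38 in aspartame 2, against -0.54, -0.85, -0.95 and -0.77 in plain water 1 to 4. These shares and ratios come from the same contrast as the members and are given with no test.

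**Figure D2:**
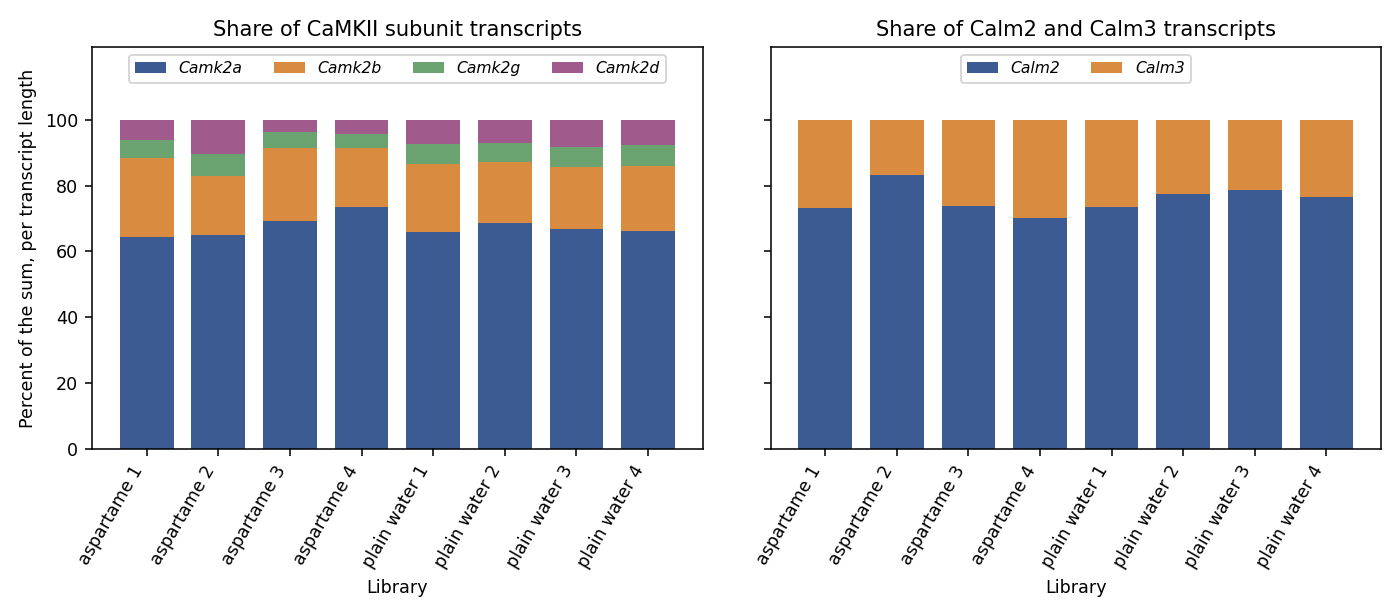
Shares of transcripts per library, in percent of the sum of length-corrected levels, for the 4 CaMKII subunit genes (left) and for Calm2 and Calm3 (right), with the aspartame libraries left of the plain water libraries. Camk2d holds 3.81 to 6.04% of CaMKII transcripts in aspartame 1, 3 and 4, 10.6% in aspartame 2 and 7.20 to 8.30% in plain water, and Calm3 holds 26.2 to 29.8% of the transcripts on the right in aspartame 1, 3 and 4, 16.8% in aspartame 2 and 21.4 to 26.6% in plain water.

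CaMKII is a ring of many subunits drawn from 4 genes, whose coding sequences here were identical to each other at 76.9 to 79.6% of aligned bases with no shared run longer than 32 bases. Camk2a and Camk2b encode the alpha and beta subunits, the main forms of forebrain neurons, and the beta subunit also binds actin. Camk2d and Camk2g encode the delta and gamma subunits, which are found in most tissues, delta being known for its part in heart muscle.

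Camk2a (chr18:60925618-60988152, plus strand) stood at 13.27, 13.58 and 13.96 in aspartame 1, 3 and 4 and at 12.88 in aspartame 2, against 13.17, 13.31, 13.11 and 13.05 in plain water 1 to 4. Aspartame 3 and 4 were the highest of the 8 libraries, aspartame 1 fell between plain water 1 and 2, and aspartame 2 was the lowest. Camk2a averaged 13.60 ± 0.34 in aspartame 1, 3 and 4 (SD, n = 3) and 13.16 ± 0.11 in plain water (SD, n = 4). The difference of 0.44 (SE 0.14, adjusted p = 0.0695 by limma) was not called, nor was that of 0.26 (SE 0.19, adjusted p = 0.903) with all 8 libraries. It depended on single libraries, being 0.61 (adjusted p = 0.0226) without aspartame 1 and 0.26 (adjusted p = 0.221) without aspartame 4.

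The summed level of 6 markers of excitatory neurons, the cells in which Camk2a is best known, was 11.57, 11.91 and 12.01 in aspartame 1, 3 and 4 and 11.52 in aspartame 2, against 11.60 to 11.79 in plain water. Aspartame 4 was the highest and aspartame 2 the lowest library for this sum, as they were for Camk2a. Slc17a7, the marker with the highest level, weighs most in the sum. The 6 markers were also averaged after each was centred on its plain water mean. That average was -0.19, 0.25 and 0.068 in aspartame 1, 3 and 4 and -0.019 in aspartame 2, against -0.021 to 0.028 in plain water. Aspartame 3 was then the highest library and aspartame 1 the lowest, unlike for Camk2a. Of these 6 markers 0 were called by limma and 1 had an unadjusted p under 0.05, Neurod2. Of 5 pan-neuronal markers, Rbfox3 was called higher (0.37, adjusted p = 0.0371) and Stmn2 lower (-0.26, adjusted p = 0.0448), both named after their values were seen. Markers of other cell types were also called higher, again named after their values were seen. They were Slc32a1, 1 of 3 markers of GABAergic neurons (0.71, adjusted p = 0.0232 by limma), Mbp, 1 of 5 of oligodendrocytes (0.62, adjusted p = 0.0398), and Cspg4, 1 of 2 of oligodendrocyte precursors (0.48, adjusted p = 0.0167). The summed levels of these lists overlapped between the groups, with 11.01 to 11.51 in aspartame 1, 3 and 4 against 11.09 to 11.23 in plain water for GABAergic neurons, 12.64 to 13.44 against 12.49 to 12.88 in plain water for oligodendrocytes, and 8.82 to 8.97 against 8.96 and above in plain water for precursors. The part of cell content in the levels of the members was not tested.

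Camk2b (chr11:5969644-6066362, minus strand) stood at 11.54, 11.62 and 11.62 in aspartame 1, 3 and 4 and at 10.73 in aspartame 2, against 11.18, 11.13, 10.99 and 11.01 in plain water 1 to 4. Aspartame 1, 3 and 4 lay close together and well above every plain water library, and aspartame 2 lay below all of them. Camk2b averaged 11.59 ± 0.048 in aspartame 1, 3 and 4 (SD, n = 3) and 11.08 ± 0.092 in plain water (SD, n = 4). Its difference, the largest among the members, was 0.52 (SE 0.078, adjusted p = 0.00949 by limma). It was called with each of the 7 libraries left out in turn, with adjusted p between 0.00553 and 0.0447. With all 8 libraries the difference was 0.30 (SE 0.18, adjusted p = 0.903), and the SD of the 4 aspartame libraries was 0.43. Camk2b has a GC content of 56.3%, and with the GC and length trend removed its difference was 0.31 (adjusted p = 0.0486).

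Camk2d (chr3:126596302-126846326, plus strand) stood at 10.01, 9.54 and 10.06 in aspartame 1, 3 and 4 and at 10.41 in aspartame 2, against 10.16, 10.21, 10.26 and 10.11 in plain water 1 to 4. Aspartame 1, 3 and 4 lay below every plain water library, aspartame 3 by far the most, and aspartame 2 was the highest of all. Groups that do not overlap in this direction were seen for 12% of all genes tested. Camk2d averaged 9.87 ± 0.29 in aspartame 1, 3 and 4 (SD, n = 3) and 10.19 ± 0.064 in plain water (SD, n = 4). The difference of -0.31 (SE 0.11, adjusted p = 0.106 by limma) was not called, and it was -0.15 (adjusted p = 0.212) without aspartame 3 and -0.18 (adjusted p = 0.903) with all 8 libraries.

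Camk2g (chr14:20734875-20794088, minus strand) stood at 9.31, 9.26 and 9.35 in aspartame 1, 3 and 4 and at 9.13 in aspartame 2, against 9.29, 9.26, 9.23 and 9.23 in plain water 1 to 4. It was the steadiest member, with an SD of 0.041 in aspartame 1, 3 and 4 and 0.029 in plain water, and the groups overlapped. Its difference was 0.056 (SE 0.068, adjusted p = 0.639 by limma) without aspartame 2 and 0.012 (adjusted p = 0.985) with it.

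Within the kinase, Camk2a made up most transcripts, with 69.1% ± 4.5 in aspartame 1, 3 and 4 (SD, n = 3) and 66.9% ± 1.2 in plain water (SD, n = 4), and Camk2b came next with 21.3% ± 3.1 in aspartame 1, 3 and 4 and 19.5% ± 0.85 in plain water. The smaller shares went to Camk2d, with 6.04%, 3.81% and 4.45% in aspartame 1, 3 and 4 and 10.6% in aspartame 2, against 7.42%, 7.20%, 8.30% and 7.73% in plain water 1 to 4. Camk2d thus held a smaller share in aspartame 1, 3 and 4 than in any plain water library and a larger one in aspartame 2. Camk2g showed the same order, with 5.54%, 4.69% and 4.03% in aspartame 1, 3 and 4 and 6.48% in aspartame 2, against 6.02%, 5.56%, 6.07% and 6.26% in plain water 1 to 4, though aspartame 1 lay just under plain water 2. The level of Camk2b relative to Camk2d was 1.53, 2.08 and 1.55 (log2) in aspartame 1, 3 and 4 and 0.32 in aspartame 2, against 1.01, 0.92, 0.73 and 0.90 in plain water 1 to 4. The mean of this ratio was 0.83 higher in aspartame without aspartame 2 and 0.48 higher with it, and with aspartame 2 the groups overlapped. Camk2b relative to Camk2a was -1.74, -1.95 and -2.34 (log2) in aspartame 1, 3 and 4 and -2.15 in aspartame 2, against -2.18 to -1.99 in plain water and the groups overlapped.

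The order of levels per kb in plain water was Calm2, Camk2a, Calm3, Camk2b, Camk4, Camk2d, Camk2g, Camkk2 and Camkk1. Among these neighbours, plain water ranges met only between Camkk2 (6.47 to 6.94) and Camkk1 (6.30 to 6.50). In aspartame 1, 3 and 4 the neighbours Camk2d (7.41 ± 0.29) and Camk2g (7.42 ± 0.041) did not differ beyond their spread, against 7.72 ± 0.064 for Camk2d and 7.36 ± 0.029 for Camk2g in plain water. The scale rests on 1 transcript length per gene, from 1205 bases for Calm2 to 5524 for Camk2d. A gene that uses another transcript would shift on it by the same amount in both groups only if both groups use that transcript alike. Transcript use was not tested, as the values are per gene.

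**Figure D3:**
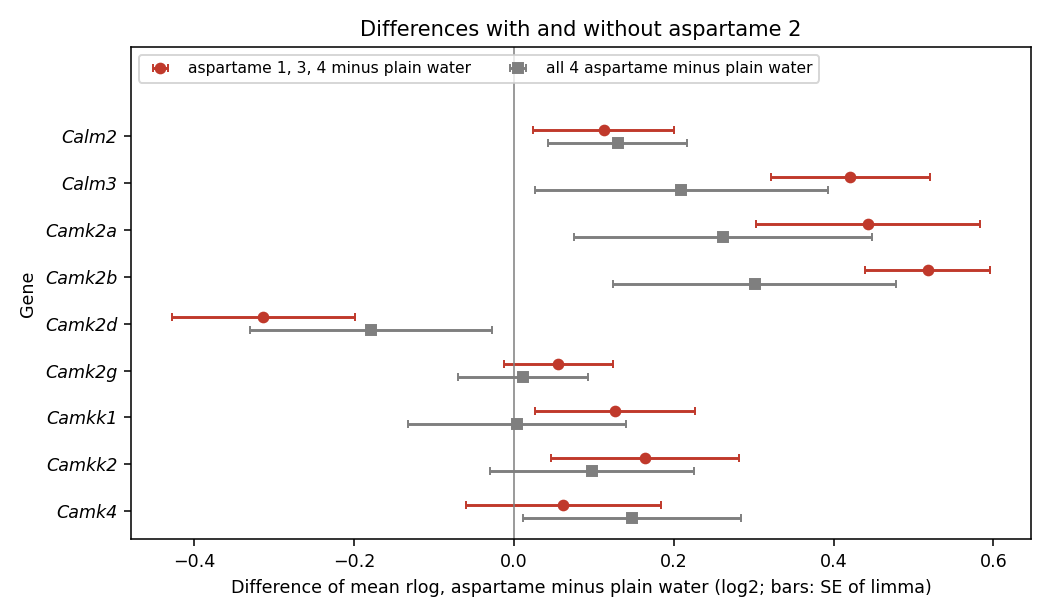
Difference of mean rlog (log2), aspartame minus plain water, for each of the 9 genes, without aspartame 2 in red and with all 8 libraries in grey, with bars of 1 SE from limma. Adding aspartame 2 brings the differences of Calm3, Camk2a, Camk2b and Camk2d closer to 0 and widens their errors, while Calm2 and Camk4 move slightly up.

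Camkk1 and Camkk2 encode the kinases that activate CaM kinase I and CaM kinase IV, and CaMKK2 also activates AMPK, the energy sensor of the cell. Camkk1 (chr11:73019008-73042073, plus strand) stood at 8.12, 8.52 and 8.20 in aspartame 1, 3 and 4 and at 7.79 in aspartame 2, against 8.27, 8.14, 8.12 and 8.08 in plain water 1 to 4. The groups overlapped, with only aspartame 3 above all plain water libraries and aspartame 2 below them. Its difference was 0.13 (SE 0.10, adjusted p = 0.446 by limma) without aspartame 2 and 0.0037 (adjusted p = 0.998) with it. The sign turned to -0.044 (adjusted p = 0.919) when all 8 libraries were used with the GC and length trend removed.

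Camkk2 (chr5:122731170-122779409, minus strand) stood at 9.12, 8.96 and 9.22 in aspartame 1, 3 and 4 and at 8.84 in aspartame 2, against 9.02, 9.22, 8.75 and 8.75 in plain water 1 to 4. All 4 aspartame libraries fell within the plain water range. The difference was 0.16 (SE 0.12, adjusted p = 0.398 by limma) without aspartame 2 and 0.098 (adjusted p = 0.922) with it.

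Camk4 encodes CaM kinase IV, a mostly nuclear kinase of neurons and T cells that phosphorylates CREB. Camk4 (chr18:32934931-33191228, plus strand) stood at 9.96, 10.28 and 10.05 in aspartame 1, 3 and 4 and at 10.44 in aspartame 2, against 9.88, 10.38, 9.94 and 9.96 in plain water 1 to 4. Plain water 2 and aspartame 2 were its highest libraries, and the groups overlapped. The difference was 0.062 (SE 0.12, adjusted p = 0.786 by limma) without aspartame 2 and 0.15 (adjusted p = 0.910) with it, and it was -0.030 (adjusted p = 0.897) without aspartame 3. An antisense gene, 2310026I22Rik, shares 72 exon bases with Camk4, and whether strand was used in counting is not given in the sources used here.

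Aspartame 2 lay on the opposite side of the plain water mean from the other aspartame libraries for 7 of the 9 members, all but Calm2 and Camk4, and the same was true of 66.4% of all genes tested. Its distance from the plain water mean was -0.43 for Calm3, -0.36 for Camkk1, -0.35 for Camk2b and -0.28 for Camk2a. For Camk2d it was 0.23 and for Camk4 0.41. The 3 members with the largest positive differences were thus all lower in aspartame 2 than in plain water. Over all 8 libraries 0 of the 9 members had groups that did not overlap, where 3.37% of all genes tested did (0.995% with aspartame above and 2.37% with aspartame below), and without aspartame 2 there were 3, where 23% did.

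Promoter sequences are shown for Camk2b and Calm3, which were called, and for Camk2d, which had the opposite sign, so that members differing in direction can be compared. They are windows of 300 bases that reach from upstream of the gene start to just past it in RefSeq (GRCm38.p6). The set of windows at hand held 5 of the 9 members. Capitals mark GGGCGG or CCGCCC, the GC box on either strand that Sp1-type factors can bind. The windows follow the start that RefSeq gives, which for Camk2b and Camk2d lies downstream of the outermost GENCODE start, so these 2 windows lie inside the gene coordinates given above.
Camk2b, chr11:6065699-6065998, minus strand: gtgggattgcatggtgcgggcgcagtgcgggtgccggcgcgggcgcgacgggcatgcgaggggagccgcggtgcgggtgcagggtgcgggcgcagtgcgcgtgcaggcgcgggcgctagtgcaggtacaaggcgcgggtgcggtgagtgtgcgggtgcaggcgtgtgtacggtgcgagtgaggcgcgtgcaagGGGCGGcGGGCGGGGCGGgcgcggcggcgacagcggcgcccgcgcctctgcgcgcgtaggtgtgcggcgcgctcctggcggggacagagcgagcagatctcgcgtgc
Calm3, chr7:16923983-16924282, minus strand: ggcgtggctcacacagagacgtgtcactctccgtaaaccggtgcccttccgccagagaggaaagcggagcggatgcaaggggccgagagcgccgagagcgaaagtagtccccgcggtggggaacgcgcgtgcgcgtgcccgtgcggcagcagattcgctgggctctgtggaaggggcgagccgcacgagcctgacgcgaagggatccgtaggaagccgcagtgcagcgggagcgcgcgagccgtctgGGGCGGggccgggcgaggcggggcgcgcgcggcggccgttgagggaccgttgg
Camk2d, chr3:126596701-126597000, plus strand: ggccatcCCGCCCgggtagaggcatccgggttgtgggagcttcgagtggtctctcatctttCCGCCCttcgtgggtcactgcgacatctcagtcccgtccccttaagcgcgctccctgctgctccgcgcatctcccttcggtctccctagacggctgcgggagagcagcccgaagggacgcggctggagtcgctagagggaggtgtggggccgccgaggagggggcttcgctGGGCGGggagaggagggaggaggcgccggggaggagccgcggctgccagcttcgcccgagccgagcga
The GC box occurred 3 times in the Camk2b window with overlap allowed, 3 times in that of Camk2d and 1 time in that of Calm3, and Camkk1 and Camkk2 held it too. It was present in 35.7% of 32851 promoter windows of the same length. The GC content of the windows was 77.3% for Camk2b, 70.3% for Camk2d and 72.0% for Calm3, against a median of 52.7%. The bases TGACG on either strand, the core of the site that CREB binds, were found in the windows of Calm3 and Camkk1 and in 20.8% of all windows. Camk2b and Camk2d, whose differences had opposite signs, were alike in these counts.

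**Figure D4:**
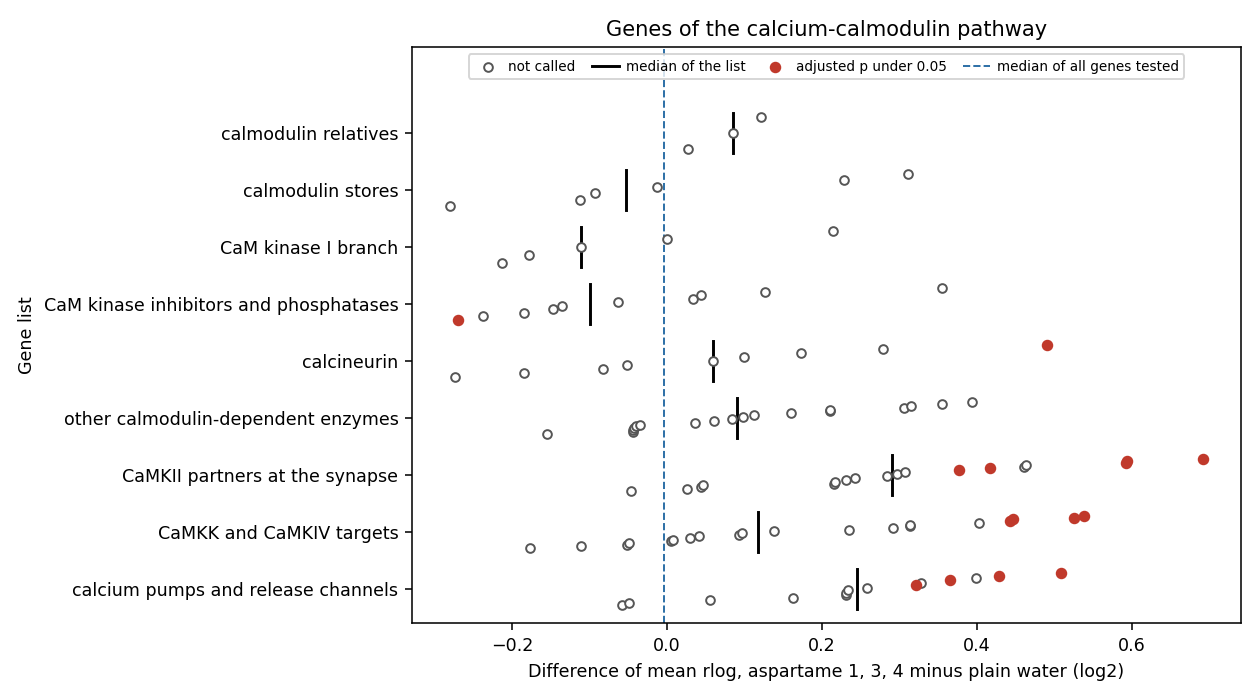
Difference of mean rlog (log2), aspartame 1, 3 and 4 minus plain water, for 103 tested genes of 9 lists around the CaM kinases, 1 point per gene, filled where the adjusted p is under 0.05, with a bar at the median of each list and a dashed line at the median of all genes tested (-0.0042). The called genes lie mostly among CaMKII partners at the synapse, CaMKK and CaMKIV targets, and calcium pumps and release channels. The list of CaMKK and CaMKIV targets also holds CREB coactivators.

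The genes around the members were read from 9 lists of 110 genes, written with earlier results of these data known. Without aspartame 2, 103 were tested, 14 were called higher and 1 was called lower, where 6.1% and 2.71% of all genes were called in those directions and 8.81% in either, and their median difference was 0.11. With all 8 libraries 0 were called by limma, 3 had an unadjusted p under 0.05, where 4.3% of all genes had one, and the median was 0.076. The count of higher calls was 7, 2 and 3 without plain water 2, 3 and 4, and 5 without aspartame 4. It was 3 where age in days was included in the fit, and 2 with the GC and length trend removed. The 2 were Dlg4 and Akap5, for a synaptic anchor of calcineurin that was not called before the removal.

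Of the substrates and partners of CaMKII at the synapse, 5 of 18 were called higher and 0 lower, against the 6.1% of all genes called higher, and the median difference was 0.29. With the GC and length trend removed 1 was called higher. Dlg4 encodes PSD-95, the main scaffold of the postsynaptic density, and stood at 11.11, 11.01 and 11.52 in aspartame 1, 3 and 4 and 10.04 in aspartame 2, against 10.44 to 10.69 in plain water. Its difference was 0.69 (SE 0.12, adjusted p = 0.0107 by limma), and it was called with the GC and length trend removed. Shank3, a scaffold beneath it, rose by 0.59 (SE 0.086, adjusted p = 0.00881). Actn2, an actin crosslinker that binds CaMKII, rose by 0.42 (adjusted p = 0.0246). Also called was Grin1, the obligatory NMDA receptor subunit, with 0.38 (adjusted p = 0.0407), named after its value was seen. In aspartame 2 these 4 genes lay 0.21 to 0.48 below the plain water mean, as Camk2b and Calm3 did by 0.35 and 0.43.

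Of the list of CaMKK and CaM kinase IV targets and CREB coactivators, 4 of 20 were called higher and 0 lower, with a median of 0.12. Over all genes tested, 6.1% and 2.71% were called in those directions. With the GC and length trend removed 0 of the list were called. Crebbp, the coactivator that joins phosphorylated CREB, rose by 0.54 (SE 0.10, adjusted p = 0.0136 by limma), and its value in aspartame 2 was 0.024 above the plain water mean. Hdac5, a histone deacetylase that CaM kinases drive out of the nucleus, rose by 0.53 (adjusted p = 0.0290). The CREB coactivators Crtc2 and Crtc1 rose by 0.45 (adjusted p = 0.0263) and 0.44 (adjusted p = 0.0454). With that trend removed 0 of the calcium pumps and release channels were called higher. Before its removal, 4 of 14 were called higher and 0 lower, against the same 6.1% and 2.71%, with a median of 0.25. They were Ryr1, a release channel of the endoplasmic reticulum, with 0.51 (adjusted p = 0.0223), the plasma membrane pump Atp2b2 with 0.43 (adjusted p = 0.0292), the sodium-calcium exchanger Slc8a2 with 0.37 (adjusted p = 0.0355) and the inositol trisphosphate receptor Itpr2 with 0.32 (adjusted p = 0.0341).

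The other lists held few calls, where 6.1% and 2.71% of all genes tested were called higher and lower. Of the calcineurin genes, 1 of 9 was called higher and 0 lower, namely Cabin1, a calcineurin inhibitor, with 0.49 (adjusted p = 0.0145 by limma), which was not called with the GC and length trend removed. Of the inhibitors and phosphatases of CaM kinases, 0 of 10 were called higher and 1 was called lower, the catalytic phosphatase subunit gene Ppp2ca, with -0.27 (adjusted p = 0.0482). That call was lost without any 1 of the 4 plain water libraries, without aspartame 1 and without aspartame 4, and Ppp2ca was not called under 17 of the 20 alternatives in all. No gene was called among 18 other calmodulin-dependent enzymes, where 6 had an unadjusted p under 0.05, as 27.1% of all genes did, and the smallest p was that of the inositol phosphate kinase gene Itpkb (0.32, adjusted p = 0.0526). None was called among 6 genes for proteins that store calmodulin, with 2 under that unadjusted p, and Marcksl1, for a calmodulin-binding protein of the membrane, had -0.28 (adjusted p = 0.111). None was called among 5 genes of the CaM kinase I branch, with 2 under that unadjusted p, and Camkv, for a kinase-like protein with no known activity, had 0.21 (adjusted p = 0.141). None was called and 0 had such an unadjusted p among 3 tested calmodulin relatives, with Cabp1, for a neuronal calcium sensor, at 0.12 (adjusted p = 0.552), and Calm4, Calm5, Calml3 and Calml4 did not pass the filter.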

How the data were processed

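Per the labels and methods, the authors made stranded mRNA libraries from the amygdala of each mouse, sequenced them as paired 150 base reads, aligned them with STAR to mm10, counted genes with Salmon and analysed the counts with DESeq2. They deposited log2 values, taken as rlog values from the name of the table, whose options are not given in the sources used here. No counts were at hand, so depth, and the precision it gives, is unknown. The number of per-sample columns left unused was 0.

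Samples were grouped by their labels. The fit used limma 3.58.1 (R 4.3.3) with empirical Bayes moderation, a mean-variance trend and Benjamini-Hochberg adjustment over all genes tested (threshold 0.05). It was also run on simulated data with noise drawn independently for each gene and library. Those data lack the variation that genes share along the first principal component, so they do not bear on the calls made here. Genes entered the fit if their mean rlog was 3 or more and their values varied. Lengths, GC content and coordinates came from GENCODE M21 (GRCm38), which held 12787 of 12870 genes (99.4%), and promoters from RefSeq. Per-kb levels used the longest protein-coding transcript. Python 3.11.15, numpy 2.4.6, pandas 2.3.3 and matplotlib 3.10.9 were used for tables and plots.

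The members and gene lists were chosen with earlier results of these data known. All 9 members were named, of each list up to 4 called genes with the largest differences (or the gene with the smallest p where none was called), and for Camk2a, Camk2b, Camk4 and Calm2 the 3 genes with the most similar profile. The alternatives were all 8 libraries, omission of each of the 7 libraries, a filter at a mean rlog of 5 or none at all, moderation that was robust or had no trend, scaling by quantiles or by a shift of the medians, age in days as a covariate, the replicate number as a block, and removal within each library of a trend with GC content and length (natural splines, 5 degrees of freedom), alone and with the block. The same removal with all 8 libraries was added after seeing the data. The authors' test on counts was not repeated, because no counts were at hand. Counts and sums over lists can include genes that are not reported here by name.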

Additional observations from a re-analysis of the deposited data

Results flagged for a closer look

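Camk2b in aspartame 2, at 10.73, lay far from the other 3 aspartame libraries, of which the nearest was at 11.54. The gap took 0.904 of the range of the 4 aspartame libraries. Of 18 groups of 4 libraries examined this way (each of the 9 members in each group of mice), 1 stood out, and chance flags about 1 in 20.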

How the results depend on the processing

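The count of members called higher, 2 (Camk2b and Calm3), was 0 with all 8 libraries, with or without removal of the GC and length trend (the removal with 8 libraries was chosen after seeing the data). It was 1 after quantile normalization and 1 with age as a covariate, where Calm3 was not called (adjusted p = 0.0948 and 0.101), and 1 to 3 with each library left out, with 1 without plain water 2, 3 or 4 or aspartame 4 and 3 without aspartame 1 (Camk2a in addition). With the GC and length trend removed it was again 2, but Calm2 and Camk2b. The count over all genes, 1134, was 0 with all 8 libraries, 0 with all 8 and the trend removed, 222 with age as a covariate, 240 with the trend removed, and 110 (without plain water 3) to 2082 (without aspartame 3) with each library left out. Quantile normalization moved the split of calls to 715 higher and 519 lower, against 785 and 349. Signs turned for Calm2 after quantile normalization (-0.063), for Camkk1 with all 8 libraries and the trend removed (-0.044) and for Camk4 without aspartame 3 (-0.030, where omission of each library gave -0.030 to 0.18). The sign of Camk2d was negative under all 20 alternatives (-0.41 to -0.15, adjusted p 0.0672 to 0.903) and that of Camk2b positive (0.21 to 0.55). The cause of these changes was not tested.

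Deviations of same-numbered libraries from their group means correlated at 0.28, 0.31 and -0.013 for numbers 1, 3 and 4, so the numbers were not taken as pairs. With the replicate number as a block, in which plain water 2 has no partner and dropped out, 3 members (Camk2b, Calm3 and Camk2a) and 1379 genes were called, with all 8 libraries and the block 0 members and 0 genes, and with the block and the GC and length trend removed 1 member (Calm2, 0.37, adjusted p = 0.0474) and 105 genes. With the block and without aspartame 2, 27 of the genes in the 9 lists around the CaM kinases were called higher, against 14 without the block. Over all genes tested, 1042 of 12877 were called higher with the block and 785 of 12870 without it. Not every library correlated best with its own number.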

Other observations

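The 3 genes whose profile over the 8 libraries was closest to that of Camk2b were Cplx1, Rtkn and Kcnj11, with root mean square differences of centred rlog of 0.040, 0.051 and 0.052, where the median over 12860 genes was 0.338. For Camk2a they were Gal3st3 (0.058), Arf3 (0.066) and Hivep3 (0.076), with a median of 0.345. For Camk4 they were Otud1 (0.074), Purb (0.075) and Rab40b (0.084), with a median of 0.248. For Calm2, which varied least of these members, they were Dync2h1 (0.025), Aebp2 (0.026) and Tmem181a (0.032), with a median of 0.180. The 8 libraries share the spread of aspartame 2, which enters each of these values.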
